A study of Mus musculus with 6 samples.

Results

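Expression was compared for 9 mouse transcription factor genes known for directing myeloid precursors toward dendritic cells or toward monocytes and macrophages: Spi1, Zbtb46, Batf3, Id2, Runx3, Bcl6, Maf, Cebpa and Cebpb. They are 9 of 19057 genes with a probe of their own on the array, and all probes that the platform's annotation assigns to these symbols were taken, 14 of 45281. Of these, 10 probes of 7 genes were detected on enough arrays to be tested, among 9370 genes with a tested probe, and 4 probes were not tested, which leaves Maf and Runx3 without a test. Mouse bone marrow cells were cultured for 1 week with GM-CSF, the cytokine commonly used to grow dendritic-like cells from marrow, and were then given ovalbumin labelled with the dye Alexa647, which the mannose receptor takes up. Cells were sorted by that label into mannose receptor negative (MR-) and mannose receptor positive (MR+) populations and lysed straight after the sort, and their total RNA was hybridised to Illumina bead arrays, 3 arrays per population, numbered M1, M2 and M3 in both. Neither population carried a genetic change or a further treatment that the labels record, and the labels name no strain, sex or age and do not say whether marrow was pooled or whether M1 to M3 are animals or cultures, so that every p-value below sets a difference against a spread between samples that may be only technical.

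Spi1 encodes PU.1, an ETS family factor that all myeloid lineages need. Among the others, Zbtb46 and Batf3 are known from conventional dendritic cells, Id2, Runx3 and Bcl6 are needed for particular dendritic cell subsets, and the C/EBP factors and MAF are known for granulocyte, monocyte and macrophage programmes. Marrow cultures grown with GM-CSF are known to hold both macrophage-like and dendritic cell-like cells.

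All 8 defining genes of cultured myeloid dendritic cells on the list (such as Itgax, which encodes CD11c, and the class II genes H2-Ab1 and H2-Aa) were detected on every array. Their levels went both ways: Itgax rose in MR+ (1.22 ± 0.19, log2 difference ± SE, adjusted p = 0.0064), while H2-Ab1 (-1.19 ± 0.22, adjusted p = 0.012), H2-Aa (-0.67 ± 0.15, adjusted p = 0.026) and the class II chaperone gene Cd74 (-0.51 ± 0.12, adjusted p = 0.034) fell and 4 did not pass. Leaving out single arrays left 0 to 3 of these falls, with 1 left without the M2 array of MR- or the M2 or M3 array of MR+ and 0 without the M3 array of MR-; with the array number as a block 2 of the 8 rose. Mrc1, which encodes the mannose receptor itself, had a normalized log2 intensity of 9.40 ± 0.69 in MR- and 12.03 ± 0.56 in MR+ (mean ± SD, n = 3), a difference of 2.64 ± 0.39 (SE; limma, adjusted p = 0.0051) in the direction of the labels. Each array detected between 15988 and 16641 probes at a detection p below 0.05, and the number of arrays limits the precision. Markers of other cells differed between the populations. The 12 T cell markers with a probe summed to between 3318 and 5679 units of normalized linear intensity on the MR- arrays and between 742.0 and 1060 on the MR+ arrays. Cd3g (log2 difference -5.98 ± 0.30), Cd6 (-4.11 ± 0.28) and Cd3d (at least 13.7-fold lower) fell and Cd2 rose. Cd28 (0.21 ± 0.28, adjusted p = 0.70) and Cd8b1 (-0.50 ± 0.18, adjusted p = 0.12) did not pass in limma's test, though Cd8b1 did with the array number as a block (adjusted p = 0.014). Cd3e was detected on 1 MR- array alone, and Cd247, Cd4, Cd5 and Cd8a were undetected on all 6 arrays. The 10 NK cell markers summed to between 407.8 and 1545 in MR- and between 75.2 and 127 in MR+; Klrd1 and Klrk1 fell (1 of them without the M1 array of MR+ or without any M2 or M3 array), while Ncr1, Klrb1c, Eomes and Tbx21 were undetected throughout. The 12 neutrophil markers summed to between 6280 and 18348 in MR- and between 3400 and 5777 in MR+, with 2 of 11 tested, Lcn2 and Prtn3, lower in MR+. The count was 5 without the M1 array of MR+ or the M2 array of MR-, and 8 with the array number as a block. The 5 B cell markers summed to between 41.1 and 127 against 21.6 and 43.3, with Pax5 and Ms4a1 undetected on all arrays and Blk detected in MR- alone and at least 2.73-fold lower in MR+ (adjusted p = 0.049), a call lost without the M1 array of MR+ or any M2 or M3 array; the 6 plasmacytoid dendritic cell markers summed to between 612.0 and 880.4 against 683.8 and 858.9, with Siglech undetected; and the 6 mast cell and basophil markers summed to between 64.0 and 92.3 against 43.8 and 62.9. The part of these other cells in the results below was not tested.

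The stretches of DNA in front of the factors whose probes passed the test below, and of Bcl6, are shown because they are where the regulators of these genes would be read from. Each runs 5′ to 3′ on the gene's strand and holds the 250 bases before a RefSeq transcription start and the first 30 bases after it, in build GRCm38.p6. Capitals mark matches, on either strand, to the motifs of the factors themselves, of the E proteins that Id2 binds, and of the TATA box, each spelled out after the sequences.
Zbtb46 promoter window: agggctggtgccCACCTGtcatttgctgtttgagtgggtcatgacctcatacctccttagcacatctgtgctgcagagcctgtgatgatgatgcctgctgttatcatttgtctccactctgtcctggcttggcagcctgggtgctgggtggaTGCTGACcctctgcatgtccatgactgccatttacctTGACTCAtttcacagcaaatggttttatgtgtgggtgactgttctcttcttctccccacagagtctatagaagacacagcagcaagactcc
Batf3 promoter window: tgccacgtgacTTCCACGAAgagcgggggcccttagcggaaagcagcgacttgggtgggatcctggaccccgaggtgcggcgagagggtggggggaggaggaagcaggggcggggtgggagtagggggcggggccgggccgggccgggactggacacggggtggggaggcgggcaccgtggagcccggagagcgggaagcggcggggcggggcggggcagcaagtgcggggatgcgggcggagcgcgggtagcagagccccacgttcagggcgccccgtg
Cebpa promoter window: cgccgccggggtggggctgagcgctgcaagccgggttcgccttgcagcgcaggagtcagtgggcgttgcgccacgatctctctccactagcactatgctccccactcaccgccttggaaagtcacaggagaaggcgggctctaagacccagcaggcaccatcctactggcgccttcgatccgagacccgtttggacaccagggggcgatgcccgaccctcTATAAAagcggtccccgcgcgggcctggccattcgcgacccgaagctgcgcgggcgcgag
Cebpb promoter window: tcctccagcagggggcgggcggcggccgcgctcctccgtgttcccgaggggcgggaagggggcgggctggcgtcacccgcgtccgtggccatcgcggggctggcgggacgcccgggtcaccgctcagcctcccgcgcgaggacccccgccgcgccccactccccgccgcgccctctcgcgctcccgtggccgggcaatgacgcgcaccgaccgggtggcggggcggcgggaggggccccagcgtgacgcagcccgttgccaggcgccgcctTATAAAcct
Bcl6 promoter window: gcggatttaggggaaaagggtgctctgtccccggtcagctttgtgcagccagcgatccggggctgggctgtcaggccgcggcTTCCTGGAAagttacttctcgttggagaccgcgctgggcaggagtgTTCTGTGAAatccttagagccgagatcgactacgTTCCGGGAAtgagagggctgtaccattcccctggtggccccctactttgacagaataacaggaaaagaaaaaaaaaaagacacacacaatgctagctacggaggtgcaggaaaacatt

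The Zbtb46 window lies at chr2:181424359-181424638 on the minus strand, at a start inside the annotated gene, and holds a match to the motif shared by AP-1 and BATF factors, TGANTCA, whose first base is at position -61 from the start. In the same window the MAF factors' core motif, searched as TGCTGAC, begins at -98, and an E protein motif, searched as CAGGTG and here on the opposite strand, at -238. The Batf3 window, at chr1:191098164-191098443 on the plus strand, holds a single match to the BCL6 motif, searched as TTCNNNGAA, at -239. The Cebpa window at chr7:35119043-35119322, on the plus strand, has the TATA box letters TATAAA at -30, and the Cebpb window at chr2:167688665-167688944, also on the plus strand, has the same letters at position 22 after the start. The Bcl6 window at chr16:23981254-23981533, on the minus strand and also at a start inside the gene, has 3 BCL6 matches, at -168, -122 and -88, and a second Bcl6 window further upstream has a match at -118. Among 32851 RefSeq windows of the same length, 7.83% held the BCL6 letters, 7.46% the AP-1 letters, 4.32% the MAF letters, 19.1% those of the E proteins and 13.1% those of the TATA box. A second E protein motif, CAGCTG, in 14.9% of all windows, was found in the Id2 window. RefSeq windows were found for 7 of the 9 factors, 9 windows in all. The PU.1 motif was searched as GAGGAAGT, which 2.82% of all windows hold, and the motif of the C/EBP factors as TTGCNNAA, which 10.4% hold. Neither was in any of the 9, which says only that these letters are not in these stretches. The RUNX motif was searched as TGTGGT, in 15.6% of all windows, and was in a single Runx3 window. Matches of different motifs did not overlap in the windows shown. These are matches of letters in a single stretch per start and not sites shown to be bound.

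Values below are normalized log2 intensities in the order M1, M2, M3, means carry the SD over 3 arrays, and differences are MR+ minus MR- with their SE from the limma fit; p-values carry the Benjamini-Hochberg adjustment for the 16686 tested probes, and a result passed at an adjusted p below 0.05. Of the 9 genes, Zbtb46 and Batf3 were lower in MR+, Cebpa and Cebpb were higher, Spi1, Id2 and Bcl6 did not pass, and Maf and Runx3 were not tested. Among all genes tested, 15.3% passed, 8.19% higher and 7.13% lower in MR+. Zbtb46 entered the test only through its MR- arrays and Cebpa only through its MR+ arrays, which set the direction of both differences in advance. Of the 5 genes detected on all 6 arrays, Batf3 fell, Cebpb rose and 3 did not pass, beside 14.6% of all genes so detected. In 5 of the 7 tested genes every array of a population stood above every array of the other, as in 34.6% of all genes. With the array number as a block, Id2 joined the genes that were higher and Bcl6 those that were lower. In that fit 16.4% of all genes were higher and 13.6% lower. The correlation of same-numbered arrays allows such a block for M1 and M2, but for M3 it was no higher than between M2 and M3 arrays. In bulk RNA of sorted cells, fewer cells of a type and less RNA per cell cannot be told apart, here and in all that follows.

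**Figure D1:**
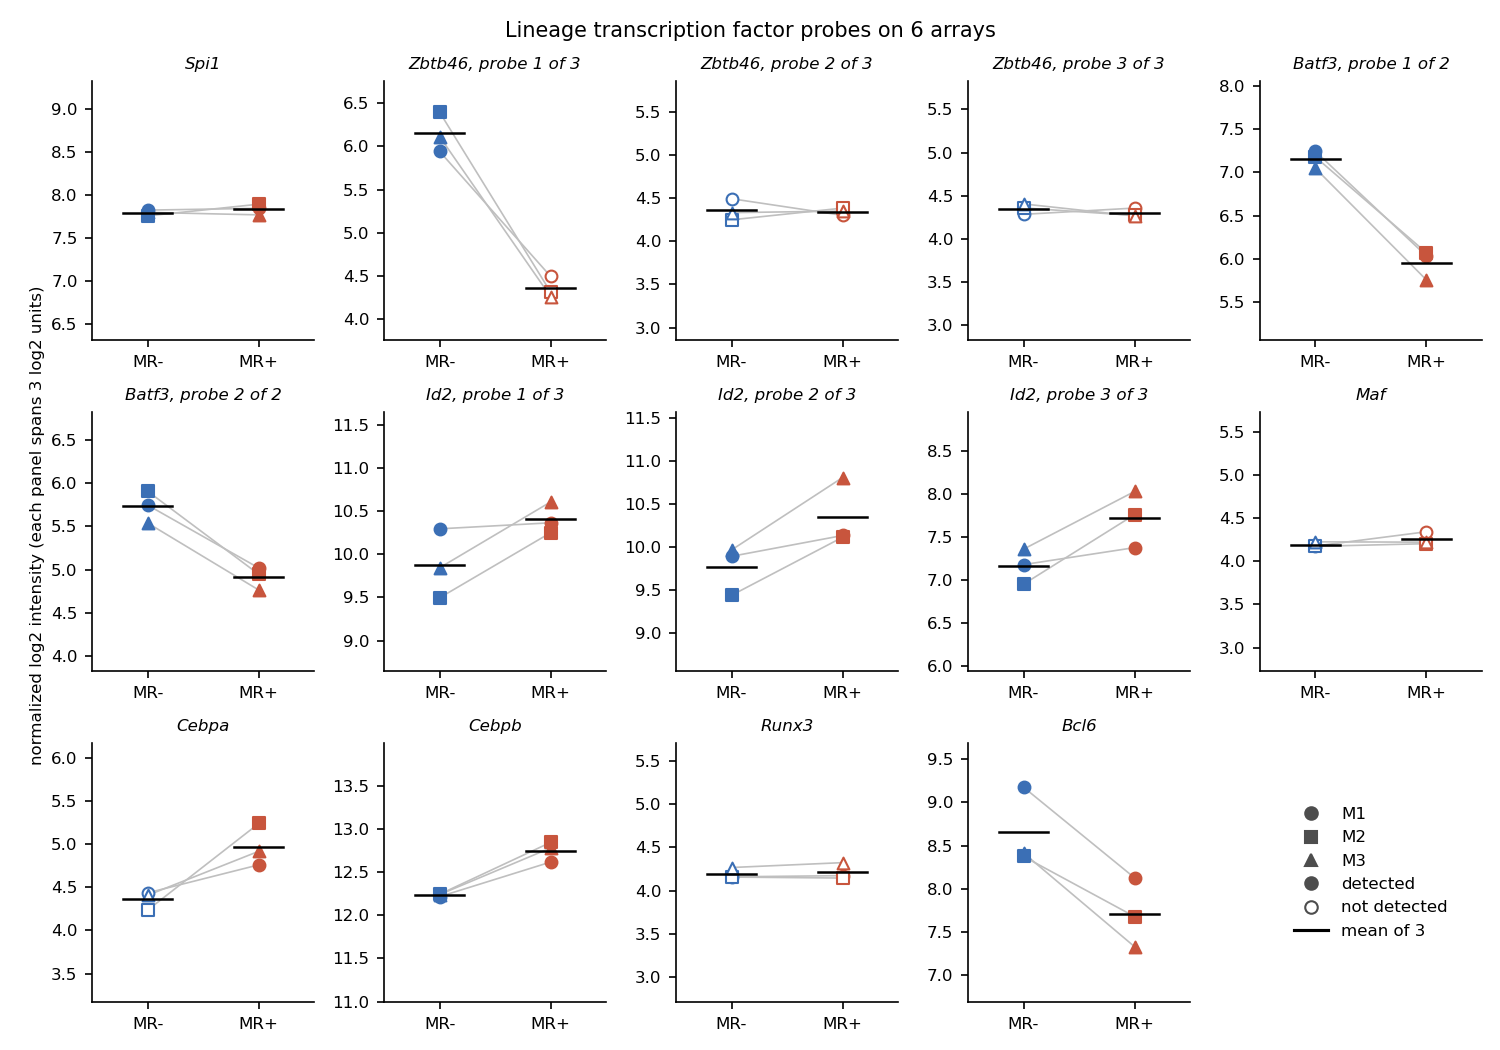
Normalized log2 intensity (y axis, each panel spanning 3 log2 units) of all 14 probes of the 9 factors on the 3 MR- and 3 MR+ arrays; the marker shape is the array number, open markers are arrays where the probe was not detected, lines join arrays of the same number and bars are means of 3. The first Zbtb46 probe drops from a mean of 6.15 to 4.35 and both Batf3 probes drop without overlap, while Spi1 stays between 7.76 and 7.89 on all arrays.

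Spi1, the factor shared by all these lineages, was measured by a single probe (ILMN_1235139) at 7.82, 7.76 and 7.80 in MR- and 7.84, 7.89 and 7.77 in MR+. The values of the populations overlapped, and all 6 arrays lay close together. The difference was 0.04 ± 0.11, with a 95% interval from -0.21 to 0.30 (adjusted p = 0.86), which leaves room for a change of up to that size in either direction. Its sign depended on the scaling: with array medians alone set equal, which moves the median of all probes from 0.02 to -0.11, the Spi1 difference was -0.11 (adjusted p = 0.63).

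Among the dendritic cell factors, Zbtb46, a zinc finger factor known in mouse for marking conventional dendritic cells and their committed precursors, was detected in MR- alone. Its first probe (ILMN_2619179) read 5.94, 6.39 and 6.11 in MR- and 4.49, 4.31 and 4.26 in MR+. All MR- arrays detected it and no MR+ array did, with deposited intensities of 81.3, 99.0 and 84.8 against 32.3, 28.9 and 26.5. Because the MR+ level is only bounded by the dimmest detected probes of each array, Zbtb46 is given as at least 3.04-fold lower there (adjusted p = 5.2e-04). It passed the detection filter through MR- alone, which set the direction of its difference in advance. The other Zbtb46 probes, ILMN_2545424 and ILMN_1256314, which the annotation assigns to cDNA records and not to a RefSeq transcript, were undetected on all 6 arrays, with every value between 4.25 and 4.49. They were not tested, and without the detection filter their differences were -0.01 (adjusted p = 0.97) and -0.05 (adjusted p = 0.77). The fall thus rests on 1 of 3 probes.

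Batf3, a basic leucine zipper factor that mouse CD8α+ and CD103+ cross-presenting dendritic cells need, fell on both of its probes. The brighter probe (ILMN_2930552) read 7.24, 7.18 and 7.05 in MR- and 6.03, 6.07 and 5.75 in MR+, so that every MR- array stood above every MR+ array. Its means were 7.16 ± 0.10 and 5.95 ± 0.17, a difference of -1.20 ± 0.14 or 2.31-fold (adjusted p = 0.0016). The dimmer probe (ILMN_2526739) read 5.75, 5.91 and 5.54 against 5.02, 4.95 and 4.76, again without overlap, and differed by -0.82 ± 0.14 (adjusted p = 0.0096); 6.58% of all tested probes were lower in MR+. The difference of the brighter probe was close to the same within each array number, at -1.21, -1.11 and -1.29. Both probes were detected on all 6 arrays. Activated T cells also express Batf3, and the T cell marker sum was lower in MR+ as well; the part of T cells in this difference was not tested.

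Id2, an inhibitor of E proteins that is needed for CD8α+ dendritic cells and holds back the plasmacytoid fate, was brighter in MR+ on 3 probes that did not pass. The first (ILMN_1228557) read 10.29, 9.50 and 9.84 in MR- and 10.36, 10.25 and 10.61 in MR+, where the M1 array of MR- stood above the M2 array of MR+. The second (ILMN_1236868) read 9.89, 9.44 and 9.97 against 10.13, 10.11 and 10.81, and the third (ILMN_2887239) 7.18, 6.95 and 7.36 against 7.38, 7.76 and 8.03, both without overlap. The differences were alike, at 0.53 ± 0.21, 0.58 ± 0.23 and 0.56 ± 0.19, with adjusted p of 0.16, 0.15 and 0.11. Within the array numbers the first probe differed by 0.07 in M1, 0.75 in M2 and 0.76 in M3, and the other probes were likewise nearest to 0 in M1. With the array number as a block all 3 probes passed, at adjusted p of 0.044, 0.019 and 0.024, as did 14.7% of all tested probes in this direction. The first probe also passed without the M1 array of MR- (0.74, adjusted p = 0.030) and without both M1 arrays (0.76, adjusted p = 0.025). NK cells also express Id2, and the NK marker sum was lower in MR+. The part of NK cells in the Id2 difference was not tested.

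Bcl6, a transcriptional repressor that conventional dendritic cells need in mouse and that restrains inflammatory genes in macrophages, read 9.18, 8.37 and 8.41 in MR- and 8.13, 7.68 and 7.33 in MR+ on its single probe (ILMN_1230353). The populations did not overlap, but M1 was the highest array of each and the spread within a population was wide (8.65 ± 0.45 and 7.71 ± 0.40). The difference of -0.94 ± 0.28 missed the threshold (95% interval from -1.59 to -0.30, adjusted p = 0.065). Within the array numbers it was -1.05, -0.70 and -1.09, and with the number as a block it passed (adjusted p = 0.0014). It also passed without the M1 array of MR+ (-1.16, adjusted p = 0.041), without both M1 arrays (-0.90, adjusted p = 0.0072) and with array medians alone set equal (-1.10, adjusted p = 0.042). T cells and B cells also express Bcl6, and the T cell marker sum and the B cell gene Blk were lower in MR+ too. Bcl6 was highest on the M1 array of MR-, which also had the highest neutrophil marker sum, 18348. That array had the lowest T cell sum (3318) and the lowest B cell sum (41.1) of the MR- arrays. The part of these cells in the Bcl6 difference was not tested.

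Runx3, a Runt family factor known in mouse for Langerhans cell development and for the response of dendritic cells to TGF-β, was undetected on all 6 arrays. Its probe (ILMN_2747141) lay between 4.14 and 4.32 with a lowest detection p of 0.19, not above background on any array, and without the detection filter its difference was 0.02 (adjusted p = 0.95). A difference was not detectable at this brightness.

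On the macrophage side, Maf, which encodes the large MAF factor c-Maf of mature macrophages, was also undetected throughout, at 4.17 to 4.34 with a lowest detection p of 0.15 (ILMN_3100322), and without the filter its difference was 0.06 (adjusted p = 0.69). Cebpa, which granulocyte and monocyte progenitors need, was dim but detected only in MR+: its probe (ILMN_1247147) read 4.44, 4.24 and 4.41 in MR-, all undetected, and 4.76, 5.24 and 4.92 in MR+. The MR+ arrays all stood above the MR- arrays, and Cebpa is given as at least 1.37-fold higher in MR+ (adjusted p = 0.040), having entered the test through MR+ alone. The call was lost with an offset of 50 in place of 16 in the background correction (adjusted p = 0.090), without the detection filter (adjusted p = 0.099), and without the M1, M2 or M3 array of MR- or the M2 or M3 array of MR+ (adjusted p between 0.051 and 0.13).

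Cebpb, a C/EBP factor that acts in monocyte survival and in the inflammatory programme of macrophages, read 12.22, 12.24 and 12.24 in MR- and 12.62, 12.85 and 12.78 in MR+ (ILMN_2756435). The MR- arrays were nearly identical and all MR+ arrays were brighter. The means were 12.23 ± 0.02 and 12.75 ± 0.12, a difference of 0.51 ± 0.12 or 1.43-fold (adjusted p = 0.027). The direction was kept under every alternative tried, but the call was lost with cyclic loess scaling (0.44, adjusted p = 0.053), with array medians alone set equal (0.25, adjusted p = 0.27) and without the M2 or M3 array of either population (adjusted p between 0.088 and 0.11). Neutrophils and their precursors also express both C/EBP genes, and the neutrophil marker sum was lower in MR+. The part of these cells in the Cebpa and Cebpb differences was not tested.

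**Figure D2:**
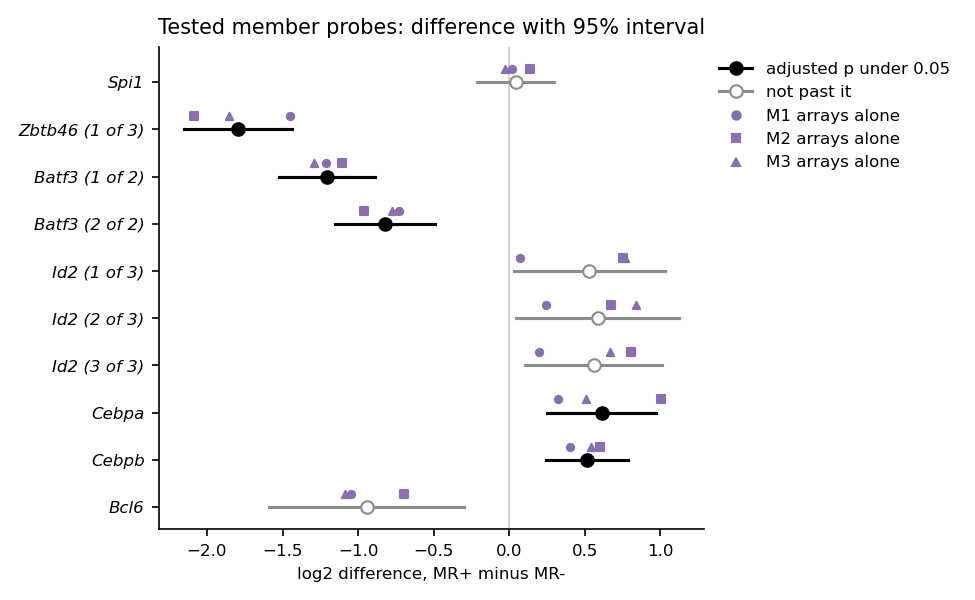
Difference in normalized log2 intensity between MR+ and MR- (x axis) for the 10 tested probes of the 7 factors, with 95% intervals from limma; filled circles passed at an adjusted p below 0.05 and small purple markers are the differences within M1, M2 and M3. Both Batf3 probes lie at -0.82 or lower and Cebpb at 0.51; the points of Zbtb46 and Cebpa are fitted against a population where the probe was not detected, so that their size is not a measured difference; and the intervals of Id2 and Bcl6 leave 0 out although their adjusted p did not pass.

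Other transcription factors known from each lineage were read from lists. Of 9 tested dendritic cell factors beside the members, 4 fell, none rose and 5 did not pass, with a median difference of -0.52 against 0.02 for all genes. Of all genes, 7.13% were lower and 8.19% higher. Irf8, an interferon regulatory factor that partners with BATF factors and is needed for the Batf3-dependent subset, read 8.90, 9.33 and 8.94 in MR- and 7.77, 7.44 and 7.69 in MR+, a difference of -1.43 ± 0.16 (adjusted p = 0.0017). Irf4, its relative in the other conventional subset, had deposited intensities of 551, 459 and 512 in MR- and 259, 159 and 143 in MR+ and a log2 difference of -1.34 ± 0.21 (adjusted p = 0.0065). Neither overlapped between the populations. Stat5a, which carries the GM-CSF signal, fell by 0.95 ± 0.17 (adjusted p = 0.011) on its brighter probe, and its dimmer probe did not pass (-0.30 ± 0.15, adjusted p = 0.27). At an unadjusted p below 0.05, 0 of the 9 were higher and 6 lower in limma's test, beside 16.1% and 13.2% of all genes. Without the M3 array of MR+ the count of falls was 2, and over the arrays left out in turn it was 2 to 5.

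Of 10 tested factors of monocytes and macrophages, 3 rose, none fell and 7 did not pass, with a median of 0.65. Among all genes 8.19% were higher and 7.13% lower. With the array number as a block 5 rose, beside 16.4% of all genes. The nuclear receptor gene Nr1h3 (LXRα) was detected in MR+ alone, which set the direction of its difference in advance. Its MR+ level exceeded the bound by at least 2.97-fold (adjusted p = 2.8e-04). With detection required on all 6 arrays 2 factors rose. The others were Pparg, the nuclear receptor of alveolar macrophages and lipid handling (1.60 ± 0.25, adjusted p = 0.0061), and Spic, the ETS factor of red pulp macrophages (1.02 ± 0.14, adjusted p = 0.0035). Spic was close to background in MR-, at 4.59, 4.58 and 4.63, where the dimmest detected probes read 4.52, 4.51 and 4.51. The size of its rise is thus not fully measured. At the unadjusted threshold 4 were higher and 0 lower, beside 16.1% and 13.2% of all genes.

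The relatives and partners of the members mostly did not pass, where 15.3% of all genes passed in either direction. Of 11 ETS relatives of Spi1, Spic rose and Fli1 fell (-0.74 ± 0.19, adjusted p = 0.042), with 9 not past the threshold. The fall of Fli1 was lost without the M1 or M2 array of MR+ or the M2 or M3 array of MR-, where 0 relatives were lower, and without a detection filter; with the array number as a block 2 relatives rose and 2 fell. Of 12 relatives and partners of Batf3, the 3 that fell were Irf8, Irf4 and Jdp2, an AP-1 repressor (-0.96 ± 0.14, adjusted p = 0.0048); none rose, though 2 did with the array number as a block and 1 without the M1 array of MR-, and the median was 0.01. Of 3 tested relatives and partners of Runx3, Cbfa2t3, a corepressor of the ETO family, fell from 7.40, 7.31 and 7.18 to 5.38, 4.83 and 4.64 (-2.35 ± 0.20, adjusted p = 5.1e-04); its dimmer probe did not pass (-0.30 ± 0.11, adjusted p = 0.12). In limma's test no tested member of the ID and E protein list (0 of 4), the MAF family (0 of 4), the other C/EBP genes and their partners (0 of 5) or the BCL6 partners (0 of 5) passed, and at an unadjusted p below 0.05 the count was also 0 in each. These counts take 1 probe per gene. A slightly dimmer probe of the C/EBP gene Cebpe differed by -0.69 ± 0.23 in limma's test (unadjusted p = 0.020, adjusted p = 0.10). It passed with the array number as a block (adjusted p = 0.014). With the array number as a block 1 gene of the ID and E protein list fell, Id1 (-0.54 ± 0.25 and adjusted p = 0.22 without the block, adjusted p = 0.0090 with it), and without the M1 array of MR+ 1 gene of that list rose.

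**Figure D3:**
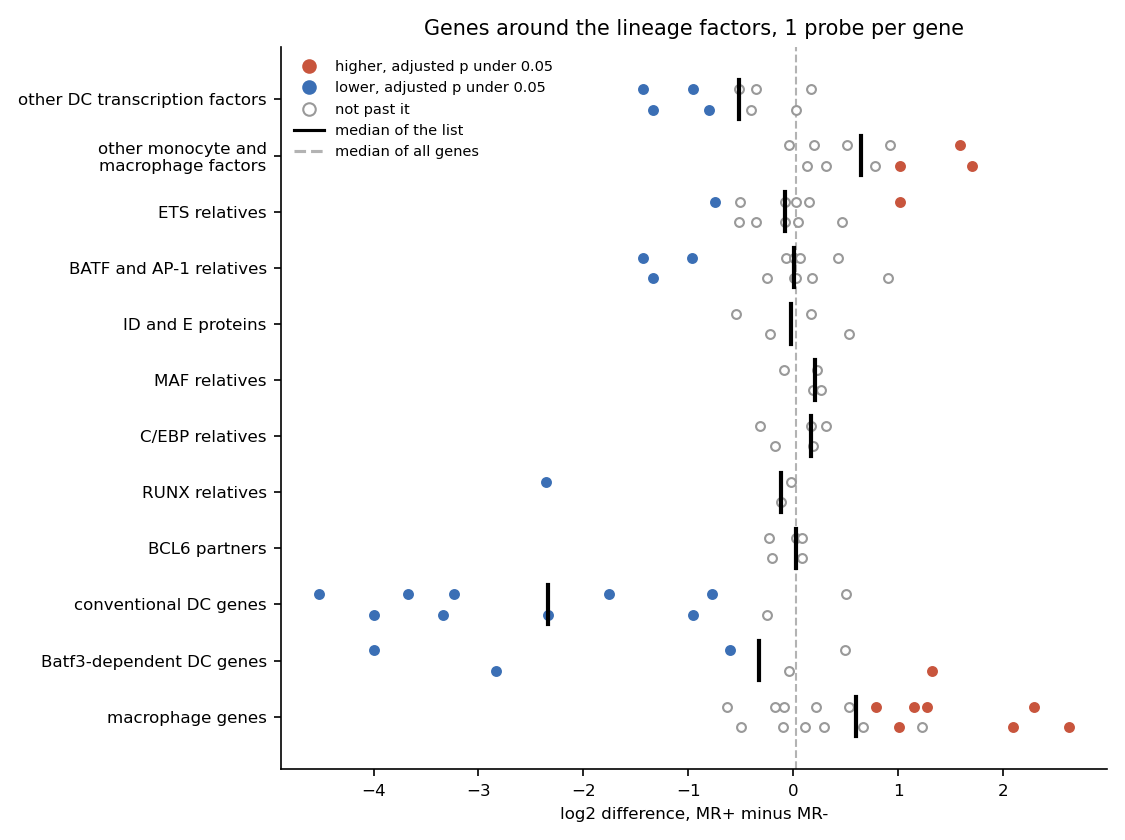
Difference in normalized log2 intensity between MR+ and MR- (x axis) for tested genes of 12 lists around the factors, 1 probe per gene; filled points passed at an adjusted p below 0.05 (red higher, blue lower in MR+), black bars are list medians and the dashed line is the median of all genes, 0.02. The conventional dendritic cell genes have a median of -2.34 and the monocyte and macrophage factors a median of 0.65.

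Effector genes that these factors are known to accompany were compared as well. Of 11 tested conventional dendritic cell genes, 9 fell, none rose and 2 did not pass (median -2.34). Among all genes 7.13% were lower and 8.19% higher. Of the 9 that fell, 3 were detected on all 6 arrays, and these 3 fell where such detection was required. The other 6 were not detected on every MR+ array. Of these, Dpp4, Btla and Spint2 were detected in MR- alone. They entered the test through MR-, which set the direction of their differences in advance. The 9 included Dpp4, a peptidase also called CD26, detected in MR- alone and at least 10.5-fold lower in MR+. Itgae, which encodes CD103 (-4.00 ± 0.20), and Adam23 (-4.52 ± 0.17) fell too. Itgae was detected on 1 MR+ array and Adam23 on 2, so that the size of neither fall is fully measured. Flt3, the receptor whose ligand drives conventional dendritic cells, was undetected on all arrays by both of its probes. T cells also express several of these genes, Itgae and Dpp4 among them, and the T cell marker sum was lower in MR+ too; the part of T cells in these falls was not tested.

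The genes of the Batf3-dependent subset changed in both directions, beside 7.13% of all genes lower and 8.19% higher. Of 6 tested, 3 fell, 1 rose and 2 did not pass, with a median of -0.32. None of the 4 was detected on all 6 arrays. With the array number as a block 2 rose, Cadm1 joining (adjusted p = 0.054 without the block and 0.011 with it). Itgae and Cd207, which encodes langerin (detected in MR- alone, at least 6.26-fold lower), fell, while Clec9a, the dead-cell receptor of that subset, was undetected in MR- (4.26, 4.24 and 4.29) and detected on all MR+ arrays (4.77, 6.25 and 5.74), at least 2.10-fold higher in MR+ (adjusted p = 0.040), having entered the test through MR+ alone. Its call was lost with the offset of 50 (adjusted p = 0.082), without the filter (adjusted p = 0.18), and without the M1, M2 or M3 array of MR- or the M2 or M3 array of MR+ (adjusted p between 0.063 and 0.13). Xcr1, Cd8a and Tlr3, further genes of this subset, did not reach the detection filter.

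Mrc1 is set aside among the macrophage genes, since the cells were sorted on labelled ovalbumin that the mannose receptor takes up. Of the other 17 tested, 6 rose, none fell and 11 did not pass (median 0.53), beside 8.19% of all genes higher and 7.13% lower. At an unadjusted p below 0.05 the counts were 8 and 0, beside 16.1% and 13.2% of all genes. With the array number as a block 9 rose and 2 fell, beside 16.4% and 13.6% of all genes. In limma's test 1 fell without the M1 array of MR- and 2 without both M1 arrays. The largest of the 6 rises were in Gas6, a ligand of the TAM receptors (2.30 ± 0.16, adjusted p = 2.6e-04), and Mertk, a receptor for it (2.10 ± 0.28, adjusted p = 0.0033). The 2 genes that fell with the block were Fcgr1 (-0.63 ± 0.30, adjusted p = 0.22 without the block and 0.0046 with it) and Axl (-0.50 ± 0.26, adjusted p = 0.28 without the block and 0.011 with it). The general macrophage markers Csf1r (-0.08 ± 0.16, adjusted p = 0.80) and Adgre1, which encodes F4/80 (-0.18 ± 0.14, adjusted p = 0.49), did not pass, and their values overlapped.

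For each factor that passed, the genes whose centred values over the 6 arrays lay nearest to its own were found among all 9370 genes. Nearest to Zbtb46 were Gcnt2 and Il1r2, at a root mean square difference of 0.109 and 0.112 log2 units, and nearest to Batf3 were Dok3 (0.106) and Casp6 (0.108). Bcap31 (0.0569) and Dio2 (0.0711) were nearest to Cebpa, and Spink2 (0.0349) and Pigk (0.0392) to Cebpb. The difference between MR+ and MR- was -1.77 for Gcnt2, -1.81 for Il1r2, -1.11 for Dok3, -1.08 for Casp6, 0.63 for Bcap31, 0.60 for Dio2, 0.51 for Spink2 and 0.55 for Pigk. Since the genes were picked for nearness over these same arrays, their differences had to lie close to that of their factor. For Zbtb46 and Cebpa the match also rests on a population where the factor was not detected.

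**Figure D4:**
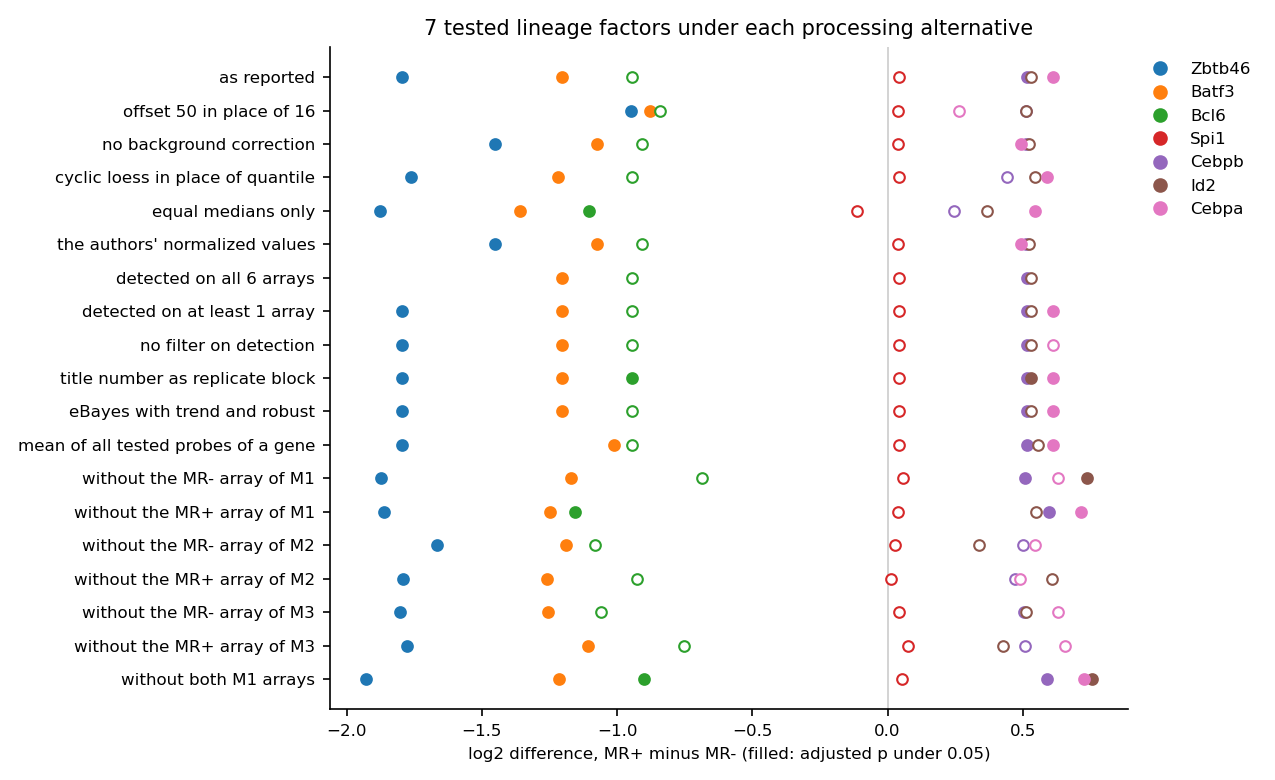
Difference in normalized log2 intensity between MR+ and MR- (x axis) of the brightest tested probe of each of the 7 factors as reported and under 18 other settings; filled points passed at an adjusted p below 0.05. Batf3 lies between -1.36 and -0.88 and passed in every setting, the points of Zbtb46 and Cebpa rest on a population where the probe was not detected, and Spi1 alone changes sign, to -0.11 with equal medians.

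Across all 18 alternatives the differences of Batf3 ran from -1.36 to -0.88, all past the threshold. Cebpb passed in 12 of 18 and Bcl6 in 4 of 18, each with the same sign throughout. Zbtb46 and Cebpa could not be tested where detection on all 6 arrays was required, and elsewhere they were tested through a single population.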

How the data were processed

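Total RNA of 3 MR- and 3 MR+ samples of sorted mouse marrow cultures was hybridised as biotin-labelled cRNA to Illumina bead arrays, per the labels' protocols. The deposited non-normalized table gives an intensity on a linear scale and a detection p-value per probe and array; the labels and headers name no scanner or software. The authors' normalized values, also linear intensities, were used as an alternative only. Symbols came from the platform's probe annotation, which can be old: 34885 probes had 1 symbol, 18 several and 10378 were not listed. Background was corrected by normexp from the detection p-values with an offset of 16, followed by quantile scaling and log2, in limma 3.58.1 (R 4.3.3). Probes with a detection p below 0.05 on at least 3 of 6 arrays were tested (16686), 1 linear model per probe with empirical Bayes moderation and Benjamini-Hochberg adjustment; the procedure was tested on simulated data. A gene stands by its brightest tested probe. A probe undetected on all arrays of a population has only a bound there, the higher of its own value and that of the dimmest detected probe of each array.

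The members and lists were chosen with earlier results of these data known. All members are named, with up to 3 passing genes of each related list with the largest differences, Irf4, Irf8, Flt3, Csf1r and Adgre1 in any case, Mrc1 as a check of the labels, and the 2 genes nearest to each factor that passed. Markers named for other cells, Itgax, H2-Ab1, H2-Aa, Cd74, Xcr1, Cd8a, Tlr3, Blk, Id1, Cadm1, Fcgr1, Axl, Btla, Spint2 and Cebpe were named after their values were seen. Deviations from the population means correlated between same-numbered arrays (r = 0.708, 0.569 and 0.275 for M1, M2 and M3, across probes). M2 and M3 arrays of different populations correlated more than the M3 pair, at 0.382 (M3 of MR-, M2 of MR+) and 0.290 (M2 of MR-, M3 of MR+). The title numbers were taken to pair the arrays, which these correlations do not settle for M3. The fit with this block is given where it changed the call of a named gene or moved a count by over 1.5 times. Promoter windows came from RefSeq's table for GRCm38.p6; probe sequences were not used here. Alternatives changed the offset, background correction, scaling, detection filter, moderation and probe rule, and left out arrays.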

Additional observations from a re-analysis of the deposited data

How the results depend on the processing

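Every factor probe kept its direction under the alternatives that tested it except Spi1, which turned to -0.11 with equal medians alone. Over all probes, 1200 were higher and 1098 lower in MR+; equal medians gave 734 and 1661, the array number as replicate block 2447 and 2181, and the fit without both M1 arrays 1816 and 1669. Leaving out each array in turn gave 598 to 1265 higher and 553 to 1274 lower. The 2298 calls shrank to 1659 without a detection filter and to between 1151 and 1352 without an M2 or M3 array of either population. Of the factors, 2 were higher and 2 lower as reported. The count of higher factors was 1 with an offset of 50, cyclic loess, equal medians, detection on all 6 arrays or no filter, and 0 to 2 when each array was left out (0 without an M2 or M3 array). The count of lower factors was 1 with detection on all 6 arrays, where Zbtb46 is not tested, and 2 to 3 when each array was left out. With the block, 5 macrophage factors and 10 macrophage genes (Mrc1 included) rose, 2 macrophage genes fell and 1 conventional dendritic cell gene (Kit, named after its value was seen) rose; the block added Id2 and Bcl6 to the factors called and ended no call. With detection on all 6 arrays 3 conventional dendritic cell genes fell, against 9. Without both M1 arrays 2 macrophage genes fell, and with each array left out in turn 0 to 1 did, and 2 to 5 other dendritic cell factors fell, 2 without the M3 array of MR+. The cause of these changes was not tested. Values of single probes and counts of smaller lists were also followed under the alternatives. Of these, 829 were classed as unchanged, 26 lost the call, 11 gained it, 61 counts moved by over 1.5 times and 1 reversed. Unchanged means that a probe kept its direction and side of the threshold, or that a count moved by no more than 1.5 times. The 829 thus mix probes with counts, including counts of 0 that stayed at 0. For Maf, Runx3 and Zbtb46 in MR+, signal over background sets the limit: no value above background was measured there.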
